A study of Mus musculus with 6 samples.

Results

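The chemokine ligands were taken as the protein-coding genes of the deposited table whose symbols begin with Ccl, Cxcl, Cx3cl or Xcl followed by a number and at most 1 letter. This rule used names alone and chose 44 of 54532 listed genes, which carry 38 different symbols because some ligands are annotated more than once. Bulk RNA sequencing was performed on hearts of 3 WT and 3 *Crlf2*-/- mice with 1 library per mouse, all collected on day 7 after ligation of the left anterior descending coronary artery, so the infarct was shared by both groups and no sham-operated heart was among these libraries. Per the study's methods, both groups had a C57BL/6J background, the wild-type mice were young adult males, the tissue was the infarct and the area around it, and *Crlf2*, the gene of the receptor chain that binds TSLP, was deleted in the whole animal rather than in 1 cell type. WT and *Crlf2*-/- mice came from different sources, so genotype and colony cannot be told apart.

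Chemokines are small secreted proteins, a few of them anchored to the cell surface, that draw leukocytes along a gradient by binding receptors coupled to G proteins. In CC chemokines the first cysteines are adjacent, and in CXC chemokines another residue stands between them. After a myocardial infarction, ligands of CXCR2 draw neutrophils, ligands of CCR2 draw monocytes, and ligands of CXCR3, CCR4 and CCR7 act largely on T cells and dendritic cells. One receptor often binds several ligands, and the genes of related ligands sit side by side in the genome.

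Levels are given as FPKM, the number of fragments divided by gene length and library size, which allow comparison between genes of different length. Each library held between 18508646 and 19682428 fragments on listed genes. *Crlf2* itself stood at 26.6, 25.1 and 21.6 FPKM in WT and at 13.2, 18.7 and 19.8 FPKM in *Crlf2*-/- hearts, so transcripts assigned to it were present in every library labelled knockout, and their exons cannot be read from values per gene. The heart label held against its markers, with 7 cardiomyocyte genes summing to between 622 and 1820 FPKM and 5 retinal genes, named because the labels' extraction text speaks of retina, to at most 0.153 FPKM, with *Crx* and *Rcvrn* at 0 in every library. Some libraries stood apart in tissue markers. Lung genes summed to 10.2 FPKM in WT replicate 3 against 0.106 to 1.65 FPKM elsewhere, and adipose genes to 64.4 FPKM in WT replicate 2 and 28.9 FPKM in *Crlf2*-/- replicate 3 against 1.24 to 9.96 FPKM in the others. Red blood cell genes summed to 269, 370 and 226 FPKM in WT and 84.9, 161 and 109 FPKM in *Crlf2*-/- hearts, and the 7 cardiomyocyte genes all had lower estimates there, with a median log2 fold change of -0.76; their part in the ligands' values was not tested.

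No chemokine ligand passed the test by limma after adjustment over all genes, and 5 ligands were lower in *Crlf2*-/- hearts at an unadjusted p under 0.05. These were *Ccl22* and *Ccl17*, both ligands of CCR4, *Ccl5*, a leukocyte attractant made by activated T cells and NK cells, *Cxcl5*, a neutrophil attractant acting on CXCR2, and *Cxcl13*, which guides B cells through CXCR5. *Ccl22* had the clearest difference, with means and SDs of 0.977 ± 0.270 FPKM for the 3 WT and 0.272 ± 0.111 FPKM for the 3 *Crlf2*-/- hearts. The abundant attractants of monocytes and macrophages, *Ccl2*, *Ccl7*, *Ccl12*, *Ccl6* and *Ccl9*, overlapped between the groups.

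Of the 44 ligand genes, 26 reached 10 fragments in 3 or more libraries and 15 over all 6, and were tested with limma on log2(FPKM + 0.1), a scale on which low genes change less than their FPKM. Calls required a Benjamini-Hochberg adjusted p no higher than 0.05 over all 15520 genes tested and a log2 fold change of 0.5 or more in either direction. None of the 26 ligands was called by limma, beside 2 genes (0.0129%) among all tested. At an unadjusted p under 0.05 there were 5 ligands, or 19.2%, against 6.33% of all genes; limma's voom on the fragments gave 3. All 5 were lower in *Crlf2*-/- hearts, where 3.32% of all genes were lower and 3.01% higher at that threshold. The median log2 fold change was 0.0079 over the tested ligands and -0.0096 over all genes, with 12 ligands below 0 and 14 above. Values of the groups did not overlap for 3 ligands, *Ccl22* and *Ccl5* lower and *Cxcl1* higher in every *Crlf2*-/- library, beside 11.7% of all genes, 6.45% lower and 5.24% higher.

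**Figure D1:**
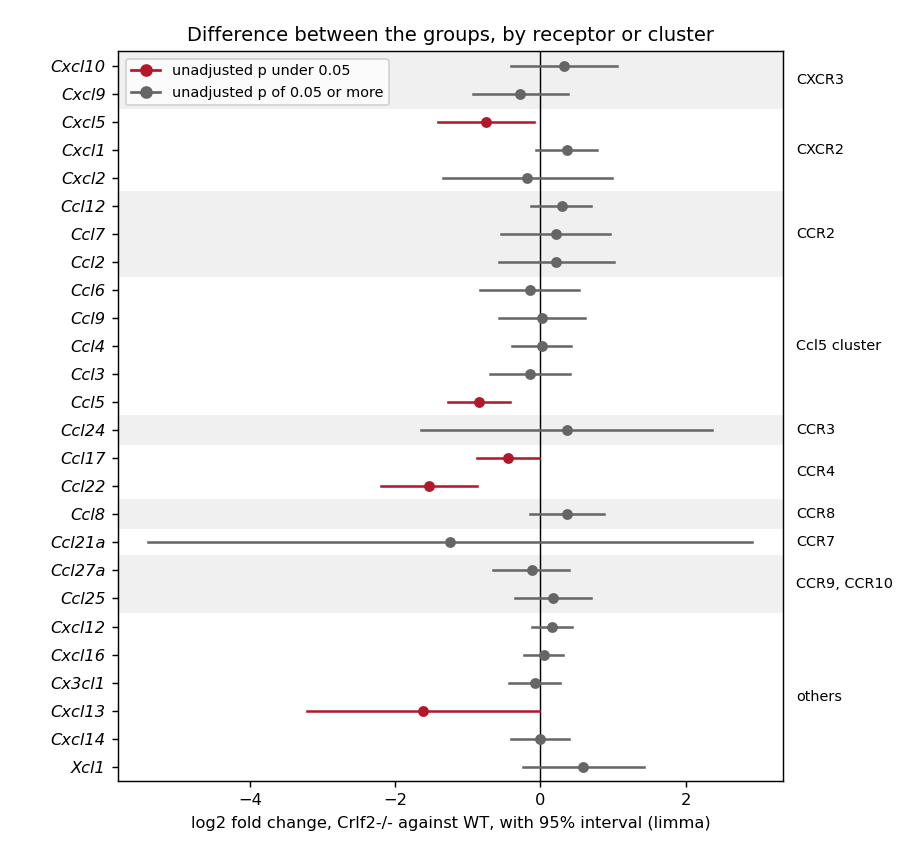
Log2 fold change of *Crlf2*-/- against WT hearts (horizontal axis) for the 26 tested ligands, grouped by receptor or gene cluster, with points for the limma estimate, bars for its 95% interval and red for an unadjusted p under 0.05. The 5 red intervals lie below 0, and the other 21 intervals include 0, the widest being that of *Ccl21a* from -5.40 to 2.92.

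Summed over all 44 genes, chemokine ligand transcripts reached 390, 349 and 325 FPKM in WT and 391, 412 and 312 FPKM in *Crlf2*-/- hearts. The ranges overlapped. The 4 most abundant genes made up between 45.5% and 53.8% of that sum in every library: *Cxcl12*, the ligand of CXCR4 made by stromal and endothelial cells (48.4 FPKM in WT and 54.0 FPKM in *Crlf2*-/-), *Ccl8* (43.9 and 57.5 FPKM), *Cxcl16*, a membrane-bound ligand of CXCR6 (47.0 and 48.7 FPKM), and *Ccl6* (38.6 and 37.3 FPKM). On average over the 6 libraries, 10 ligands exceeded 10 FPKM, 11 lay between 1 and 10 FPKM, and 5 tested ligands lay under 1 FPKM. *Ccl22*, *Cxcl2*, *Ccl24*, *Ccl25* and *Ccl27a* were the tested ligands under 1 FPKM.

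**Figure D2:**
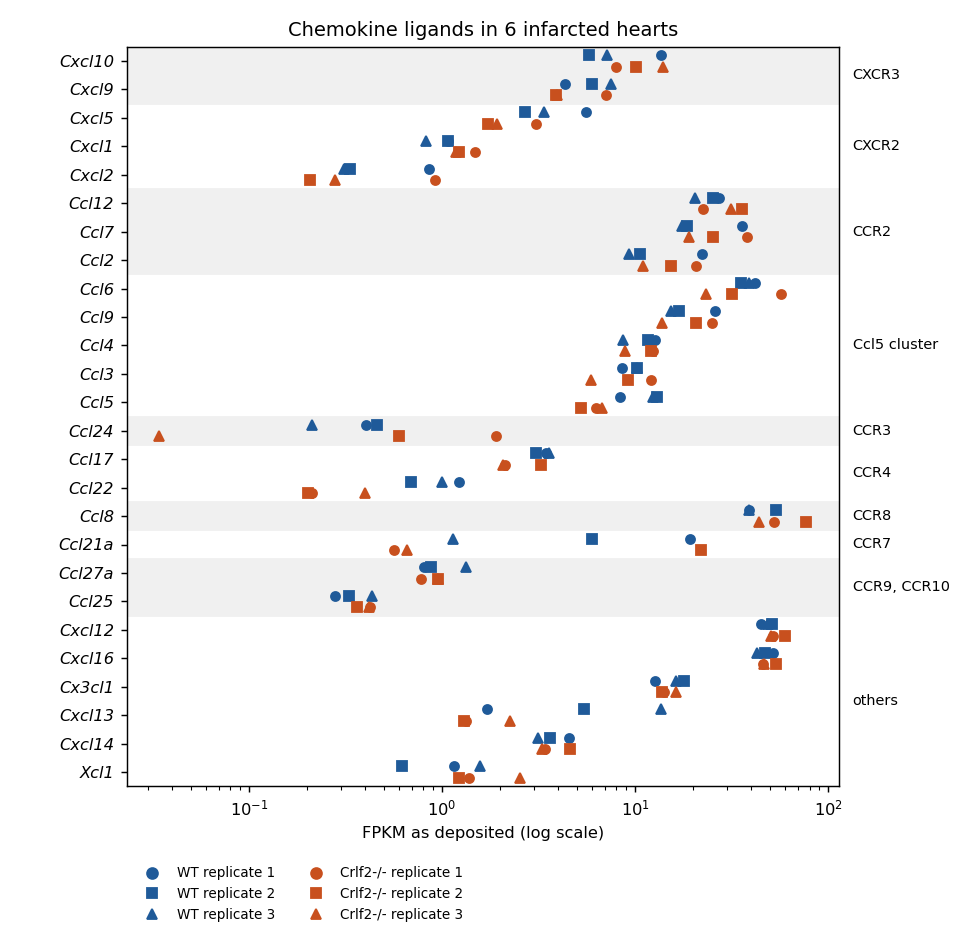
FPKM of each tested ligand in each of the 6 libraries (horizontal log axis), grouped by receptor or gene cluster, blue for WT and orange for *Crlf2*-/-, with the marker shape giving the replicate number. Blue and orange points are interleaved for 23 of the 26 ligands and are separate for *Ccl22*, *Ccl5* and *Cxcl1*.

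Ligands of CCR4 were compared first, since both stood lower. *Ccl22* (ENSMUSG00000031779) and *Ccl17* (ENSMUSG00000031780) lie on the plus strand of chromosome 8 (GRCm38), at chr8:94745590-94751699 and chr8:94810453-94812036, with *Cx3cl1*, the membrane-anchored ligand of CX3CR1, between them at chr8:94772009-94782427. The 3 genes span 66.4 kb. Their promoters are shown because the outer genes stood lower together while the gene between them did not. Each runs from 250 bases before the RefSeq start to 50 after it (GRCm38.p6, plus strand): chr8:94745434-94745733 for *Ccl22*, chr8:94771930-94772229 for *Cx3cl1* and chr8:94810203-94810502 for *Ccl17*. Capitals mark the letters TTCNNNGAA, the core of sites bound by STAT factors, searched on both strands.
Ccl22: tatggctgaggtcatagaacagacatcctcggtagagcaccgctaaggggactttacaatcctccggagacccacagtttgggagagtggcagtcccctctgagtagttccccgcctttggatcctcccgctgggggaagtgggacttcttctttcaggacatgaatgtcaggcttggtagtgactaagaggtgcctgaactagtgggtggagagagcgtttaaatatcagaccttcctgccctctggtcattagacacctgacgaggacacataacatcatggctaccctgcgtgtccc
Cx3cl1: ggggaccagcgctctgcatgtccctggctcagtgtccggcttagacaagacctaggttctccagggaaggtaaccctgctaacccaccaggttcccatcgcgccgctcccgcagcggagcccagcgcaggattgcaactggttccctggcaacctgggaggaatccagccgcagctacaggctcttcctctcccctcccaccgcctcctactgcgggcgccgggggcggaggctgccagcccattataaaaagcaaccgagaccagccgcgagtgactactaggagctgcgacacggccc
Ccl17: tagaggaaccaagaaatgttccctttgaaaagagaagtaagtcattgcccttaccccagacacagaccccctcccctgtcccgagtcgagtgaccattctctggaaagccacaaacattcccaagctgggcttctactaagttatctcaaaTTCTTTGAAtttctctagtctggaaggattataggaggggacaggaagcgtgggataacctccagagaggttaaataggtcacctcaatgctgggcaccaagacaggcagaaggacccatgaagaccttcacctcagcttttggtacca

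TTCNNNGAA occurred once in the *Ccl17* window, 99 bases before the start, and not in those of *Ccl22* and *Cx3cl1*; 8.30% of all 32851 RefSeq promoters of this length held it. Neither GAAANNGAA, the core of an element of interferon-induced genes, nor the NF-kappaB motif occurred in these 3 windows, which holds for these letters and windows only.

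*Ccl22*, which attracts regulatory and type 2 helper T cells and is made mainly by dendritic cells and macrophages, stood at 1.23, 0.695 and 1.00 FPKM in WT and at 0.213, 0.203 and 0.401 FPKM in *Crlf2*-/- hearts. The highest knockout value was below the lowest WT value (exact permutation test over libraries, two-sided, p = 0.1, the smallest that 3 against 3 allow). These values rest on 66, 35 and 51 fragments in WT and on 11, 11 and 21 in *Crlf2*-/- libraries, so counting error is large. The log2 fold change was -1.54 (standard error 0.29, 95% interval -2.20 to -0.88, unadjusted p = 0.000585, adjusted p = 0.153, limma). Across 15 other ways of processing the data it ranged from -1.84 to -0.63, with an adjusted p from 0.118 to 0.437.

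*Ccl17*, the other ligand of CCR4, stood at 3.46, 3.05 and 3.56 FPKM in WT and at 2.11, 3.25 and 2.07 FPKM in *Crlf2*-/- hearts. The second *Crlf2*-/- library lay within the WT range and the others below it. Its log2 fold change was -0.45 (standard error 0.19, 95% interval -0.88 to -0.02, unadjusted p = 0.0407, adjusted p = 0.734, limma). With 1 library left out, the unadjusted p was under 0.05 only without *Crlf2*-/- replicate 2, the library within the WT range (-0.66, unadjusted p = 0.00262, limma). Summed, the CCR4 ligands reached 4.70, 3.75 and 4.56 FPKM in WT and 2.32, 3.46 and 2.47 FPKM in *Crlf2*-/- hearts, without overlap. Both had been taken up because they stood lower, so their sum adds no separate evidence. *Cx3cl1* between them stood at 12.6, 18.0 and 16.3 FPKM in WT and at 14.1, 13.7 and 16.3 FPKM in *Crlf2*-/- hearts, with a log2 fold change of -0.08 (95% interval -0.43 to 0.27).

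**Figure D3:**
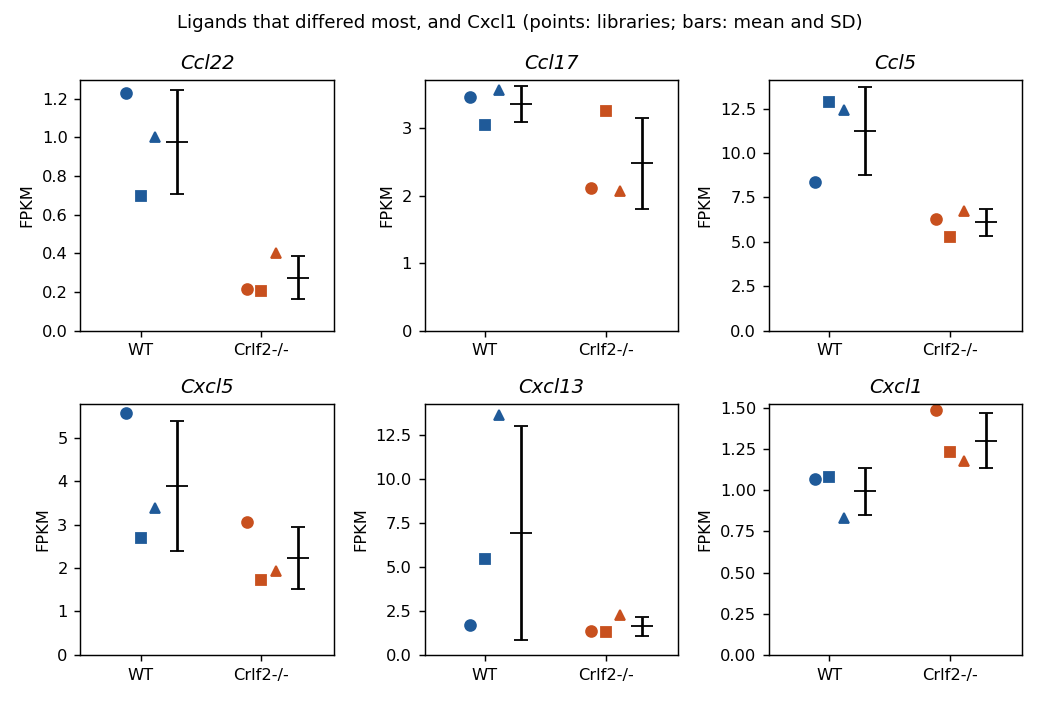
FPKM (vertical axes from 0) of *Ccl22*, *Ccl17*, *Ccl5*, *Cxcl5*, *Cxcl13* and *Cxcl1* in the single libraries of WT (blue) and *Crlf2*-/- hearts (orange), with marker shapes for replicate numbers and black bars for mean and SD of 3 libraries. The groups are apart for *Ccl22*, *Ccl5* and *Cxcl1*, and for *Cxcl13* the WT libraries run from 1.70 to 13.6 FPKM.

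Their receptor CCR4 was near the limit of detection. *Ccr4* was counted 0, 0 and 1 times in WT libraries and 5, 6 and 5 times in *Crlf2*-/- libraries, in fragments, and was not tested, being below the filter on low genes. Dendritic cell markers, set beside these ligands, summed to 69.8 to 78.2 FPKM in WT and 73.0 to 83.3 FPKM in *Crlf2*-/- hearts. That sum is led by *Fscn1*, which endothelial and stromal cells also express. Of the 8 markers 7 had a lower estimate. The unadjusted p was under 0.05 (limma) for *Cd209a* (-0.99), *Ccr7* (-0.77) and *Zbtb46* (-0.43), beside 3.32% of all genes lower at that threshold. *Clec9a* (-0.19) and *Xcr1* (-0.08) overlapped between the groups, and none of the 8 was at 0. Whether these markers have a part in the lower CCR4 ligands was not tested, and in bulk tissue fewer cells of a type and less RNA per cell cannot be told apart.

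Among *Ccl3*, *Ccl4*, *Ccl5*, *Ccl6* and *Ccl9*, CC chemokines that attract monocytes, macrophages and T cells, *Ccl5* (ENSMUSG00000035042, minus strand, chr11:83525778-83530518) stood apart. It measured 8.37, 12.9 and 12.4 FPKM in WT and 6.29, 5.27 and 6.75 FPKM in *Crlf2*-/- hearts. All 3 *Crlf2*-/- values were under the lowest WT value (two-sided exact permutation p = 0.1). The mean was 11.2 ± 2.49 FPKM in WT and 6.10 ± 0.757 FPKM in *Crlf2*-/- hearts (SD, n = 3), a log2 fold change of -0.85 (standard error 0.19, 95% interval -1.28 to -0.42, unadjusted p = 0.00171, adjusted p = 0.250, limma). Leaving out each library in turn gave -1.06 to -0.73. *Ccl5* had been singled out by the study on these same libraries, so its direction is not independent evidence.

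T cell markers summed to 34.8, 37.7 and 26.9 FPKM in WT and 16.4, 15.4 and 13.8 FPKM in *Crlf2*-/- hearts. Estimates were lower for 12 of 13 genes, the exception being *Cd4*, with a log2 fold change of 0.02. For 11 the unadjusted p was under 0.05 (limma), beside 3.32% of all genes lower at that threshold. Markers of NK cells and cytotoxic lymphocytes summed to between 20.1 and 21.7 FPKM in WT and between 9.98 and 15.8 FPKM in *Crlf2*-/- hearts, with *Nkg7*, *Gzma* and *Gzmb* lower at an unadjusted p under 0.05 and 5 of the 9 genes with a higher estimate. No gene of either list was at 0 everywhere. The part of these markers in the *Ccl5* difference was not tested.

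The other 4 of these genes lie in the same 139 kb stretch of chromosome 11, which begins with *Ccl5*, and none of them reached an unadjusted p under 0.05. *Ccl3* stood at 8.56, 10.2 and 10.2 FPKM in WT and 12.1, 9.23 and 5.91 FPKM in *Crlf2*-/- hearts (log2 fold change -0.14), and *Ccl4* at 12.6, 11.7 and 8.66 against 12.4, 12.1 and 8.87 FPKM (0.02). *Ccl6* measured 41.8, 35.2 and 38.7 FPKM in WT and 57.1, 31.6 and 23.2 FPKM in *Crlf2*-/- hearts (-0.15). *Ccl9* measured 25.9, 16.8 and 15.4 FPKM against 25.0, 20.6 and 13.7 FPKM (0.02). All 4 overlapped between the groups, and each changed sign when 1 library or another was left out.

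**Figure D4:**
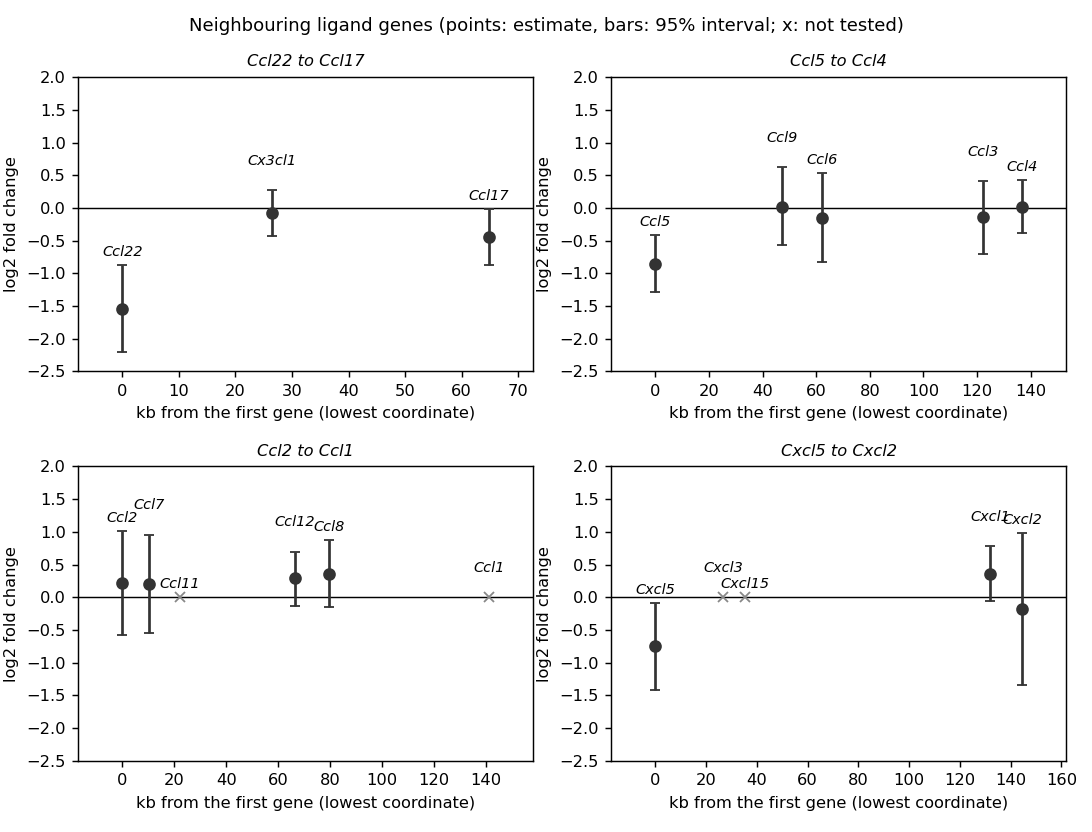
Log2 fold change (vertical axes, *Crlf2*-/- against WT, limma estimate with 95% interval) of neighbouring ligand genes against distance in kb from the first gene's lowest coordinate, for 4 clusters on chromosomes 8, 11, 11 and 5, with a cross for genes not tested. *Ccl22*, *Ccl5* and *Cxcl5* lie below 0 while their nearest tested neighbours among the ligands, *Cx3cl1* (-0.08), *Ccl9* (0.02) and *Cxcl1* (0.36) have intervals that include 0.

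CCR2 ligands, which recruit inflammatory monocytes, all had estimates above 0 with intervals that included 0. *Ccl2*, the main ligand of CCR2, stood at 22.1, 10.6 and 9.24 FPKM in WT and 20.6, 15.4 and 11.0 FPKM in *Crlf2*-/- hearts (log2 fold change 0.22, 95% interval -0.57 to 1.01). *Ccl7* stood at 35.9, 18.6 and 17.5 against 37.9, 25.3 and 19.0 FPKM (0.21, interval -0.54 to 0.96). *Ccl12* stood at 27.3, 25.2 and 20.3 against 22.5, 35.8 and 31.5 FPKM (0.29, interval -0.13 to 0.70). For *Ccl2* and *Ccl7* replicate 1 was the highest library of both groups, at up to 2.39 times the lowest of its group, a wider gap than that between the group means.

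*Ccl8*, a CCR8 ligand whose gene lies 79.61 kb from *Ccl2* in the same cluster, was the second most abundant ligand. It measured 38.9, 53.9 and 38.8 FPKM in WT and 52.1, 76.8 and 43.7 FPKM in *Crlf2*-/- hearts, overlapping, with a log2 fold change of 0.36 (95% interval -0.15 to 0.88, unadjusted p = 0.143, adjusted p = 0.904, limma). All 4 tested genes of this cluster on chromosome 11 had estimates above 0, from 0.21 to 0.36, and *Ccl11* and *Ccl1* in it were too low to test.

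Estimates of the CXCR2 ligands, which draw neutrophils, differed in sign, and only the interval of *Cxcl5* left out 0. *Cxcl5* (ENSMUSG00000029371) stood at 5.57, 2.70 and 3.39 FPKM in WT and 3.05, 1.73 and 1.93 FPKM in *Crlf2*-/- hearts. The first *Crlf2*-/- library lay above the second WT library, so the groups overlapped. Its log2 fold change was -0.75 (standard error 0.29, 95% interval -1.41 to -0.09, unadjusted p = 0.0308, adjusted p = 0.696, limma). Without WT replicate 1 it was -0.48 (unadjusted p = 0.0982, limma), and leaving out WT replicate 3 or *Crlf2*-/- replicate 2 or 3 also took the unadjusted p above 0.05, to between 0.0577 and 0.101.

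*Cxcl1*, which acts on the same receptor, stood at 1.07, 1.08 and 0.829 FPKM in WT and 1.49, 1.23 and 1.18 FPKM in *Crlf2*-/- hearts. It was the only one of the 26 ligands higher in every *Crlf2*-/- library, beside 5.24% of all genes tested (exact permutation test, two-sided, p = 0.1). The log2 fold change was 0.36 (95% interval -0.06 to 0.78, unadjusted p = 0.0853, adjusted p = 0.844, limma). *Cxcl2* overlapped between the groups, at 0.861, 0.335 and 0.310 FPKM in WT and 0.916, 0.207 and 0.279 FPKM in *Crlf2*-/- hearts (-0.18, interval -1.34 to 0.98). Replicate 1 of each group held most of its transcript, up to 4.42 times the lowest library of its group. Neutrophil markers summed to 26.9, 19.5 and 15.6 FPKM in WT and 22.9, 22.1 and 17.8 FPKM in *Crlf2*-/- hearts, overlapping.

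The promoters of *Cxcl1* and *Cxcl2* are shown because both genes are known targets of NF-kappaB and yet ordered the libraries differently. They lie on the plus strand at chr5:90890995-90891294 and chr5:90903649-90903948 (RefSeq, GRCm38.p6), and capitals mark matches of the NF-kappaB motif on both strands, where overlapping matches are joined.
Cxcl1: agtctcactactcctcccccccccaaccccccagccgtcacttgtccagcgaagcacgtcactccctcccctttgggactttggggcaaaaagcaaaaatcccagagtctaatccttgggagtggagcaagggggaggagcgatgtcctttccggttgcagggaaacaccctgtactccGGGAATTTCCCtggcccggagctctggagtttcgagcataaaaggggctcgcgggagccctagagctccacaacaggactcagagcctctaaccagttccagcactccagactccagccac
Cxcl2: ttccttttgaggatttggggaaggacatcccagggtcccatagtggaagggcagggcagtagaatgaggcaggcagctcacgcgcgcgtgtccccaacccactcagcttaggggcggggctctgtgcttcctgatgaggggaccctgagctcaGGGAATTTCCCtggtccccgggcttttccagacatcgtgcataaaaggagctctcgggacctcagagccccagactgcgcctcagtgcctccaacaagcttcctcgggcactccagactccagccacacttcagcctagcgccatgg

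Both windows hold the same run of capitals, GGGAATTTCCC, made of 2 overlapping matches that start 71 and 70 bases before the *Cxcl1* start and 97 and 96 before the *Cxcl2* start. Of the 18 tested ligands with a promoter in the RefSeq table, 5 held the motif (*Ccl9*, *Ccl27a*, *Cxcl1*, *Cxcl2* and *Cxcl10*), beside 8.46% of all promoters. A match is a stretch of letters and was not measured here as a bound site.

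CXCR3 ligands are induced by interferons and attract activated T cells and NK cells, and both tested members overlapped between the groups. *Cxcl9* stood at 4.35, 5.97 and 7.52 FPKM in WT and 7.10, 3.88 and 3.96 FPKM in *Crlf2*-/- hearts (log2 fold change -0.28, 95% interval -0.93 to 0.38). *Cxcl10* stood at 13.6, 5.76 and 7.17 FPKM in WT and 7.95, 10.1 and 13.9 FPKM in *Crlf2*-/- hearts (0.32, interval -0.41 to 1.06). In WT, replicate 1 held the least *Cxcl9* and the most *Cxcl10*, and in *Crlf2*-/- hearts replicate 1 held the most *Cxcl9* and the least *Cxcl10*, although the genes start 20.8 kb apart on chromosome 5. *Cxcl11*, annotated as a polymorphic pseudogene and so outside the rule, was counted 3, 3 and 2 times in WT libraries and 10, 2 and 1 times in *Crlf2*-/- libraries.

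Other interferon-induced genes are given beside *Cxcl9* and *Cxcl10*. A list of 14, among them *Isg15*, *Irf7* and *Ifit1*, summed to 219, 164 and 214 FPKM in WT and 275, 456 and 389 FPKM in *Crlf2*-/- hearts. All 13 tested genes had estimates above 0, and the median log2 fold change was 0.88. Of the 13, 10 had an unadjusted p under 0.05 (limma), beside 3.01% of all genes higher at that threshold. *Gbp2* (0.08), *Gbp5* (0.09) and *Irf1* (0.07), which respond strongly to interferon gamma, were near 0. *Ifng* itself, too low to test, stood at 0.235, 0.321 and 0.141 FPKM in WT and 0.104, 0.0331 and 0.0685 FPKM in *Crlf2*-/- hearts. The difference in change between *Cxcl9* and *Cxcl10* was not tested.

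Their promoters are shown because these neighbours ran opposite to each other in replicate 1 of both groups. Both lie on the minus strand, at chr5:92328030-92328329 and chr5:92348840-92349139 (RefSeq, GRCm38.p6), and are written 5′ to 3′ along that strand. The run of capitals in *Cxcl9* and the first in *Cxcl10* are matches of GAAANNGAA, searched on both strands, and the others are matches of the NF-kappaB motif.
Cxcl9: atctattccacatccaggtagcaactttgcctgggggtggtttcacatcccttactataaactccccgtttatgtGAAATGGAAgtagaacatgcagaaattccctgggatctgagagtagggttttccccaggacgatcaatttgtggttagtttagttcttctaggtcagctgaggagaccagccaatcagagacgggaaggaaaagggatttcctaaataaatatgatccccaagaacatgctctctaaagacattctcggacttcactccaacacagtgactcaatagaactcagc
Cxcl10: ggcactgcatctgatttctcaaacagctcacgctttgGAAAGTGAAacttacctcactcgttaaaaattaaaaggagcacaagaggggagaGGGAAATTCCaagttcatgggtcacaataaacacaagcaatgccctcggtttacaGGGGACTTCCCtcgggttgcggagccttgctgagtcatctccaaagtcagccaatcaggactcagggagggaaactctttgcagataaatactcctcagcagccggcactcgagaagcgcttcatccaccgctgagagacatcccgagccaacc

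GAAANNGAA occurred once in each window, starting 213 bases before the *Cxcl10* start and 175 before that of *Cxcl9*. It occurred in 4 of the 18 ligands (*Ccl3*, *Cxcl9*, *Cxcl10* and *Cxcl14*), beside 2638 of 27025 genes and 8.56% of all promoters. The *Cxcl10* window also held 3 NF-kappaB matches, of which 2 overlap, starting 159, 104 and 103 bases before the start. The *Cxcl9* window held no match of that motif, which says only that these letters are not in it.

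*Cxcl13* (ENSMUSG00000023078, plus strand, chr5:95956951-95961068), the B cell attractant, had the lowest estimate of the 26 ligands and a wide spread. It measured 1.70, 5.42 and 13.6 FPKM in WT and 1.33, 1.30 and 2.24 FPKM in *Crlf2*-/- hearts. WT replicate 1 lay among the *Crlf2*-/- libraries, and WT replicate 3 held 8.03 times as much as WT replicate 1. The log2 fold change was -1.62 (standard error 0.68, 95% interval -3.22 to -0.02, unadjusted p = 0.0477, adjusted p = 0.778, limma), and without WT replicate 3 it was -0.90 (unadjusted p = 0.142, limma). Leaving out WT replicate 2 or *Crlf2*-/- replicate 1 or 2 also took the unadjusted p above 0.05, to between 0.112 and 0.150. WT replicate 3 was the library with the most lung transcript, as given above, and it also held 21 of the 32 fragments of *Cxcl15*, a chemokine best known from lung epithelium. WT replicate 2, with 5.42 FPKM of *Cxcl13*, had lung genes at 0.136 FPKM and the most adipose transcript, at 64.4 FPKM. The part of either tissue in the *Cxcl13* values was not tested. B cell markers overlapped between the groups, at 7.28 to 9.34 FPKM in WT and 6.70 to 10.8 FPKM in *Crlf2*-/- hearts.

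*Cxcl12* and *Cxcl16* varied least between libraries of a group among the 26 ligands. *Cxcl12* stood at 44.9, 51.4 and 48.7 FPKM in WT and 51.7, 59.7 and 50.6 FPKM in *Crlf2*-/- hearts (log2 fold change 0.16, 95% interval -0.12 to 0.43), and *Cxcl16* at 51.9, 46.8 and 42.5 against 45.8, 53.5 and 46.7 FPKM (0.05, interval -0.22 to 0.31). Within a group their highest library was at most 1.22 times the lowest. *Cxcl14* (0.00) and *Xcl1* (0.59, interval -0.24 to 1.43), the XCR1 ligand made by NK and CD8 T cells, also overlapped, as did *Ccl25* (0.17) and *Ccl27a* (-0.12), ligands of CCR9 and CCR10.

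A pair of tested ligands differed far more between mice of 1 group than between groups. *Ccl21a*, a CCR7 ligand of lymphatic vessels and lymph nodes, was counted on a copy on an unplaced scaffold (ENSMUSG00000095320), with 19.2, 5.97 and 1.14 FPKM in WT and 0.561, 21.9 and 0.662 FPKM in *Crlf2*-/- hearts. *Ccl21a*, *Ccl21b* and *Ccl21c* are nearly identical copies between which counting can split or lose fragments, so this value is uncertain. *Lyve1* (1.77, 3.65 and 4.54 FPKM in WT and 2.44, 1.92 and 2.23 FPKM in *Crlf2*-/-) and *Prox1*, listed here with endothelium, ordered the libraries differently. The part of lymphatic vessels in the *Ccl21a* values was not tested. *Ccl24*, the eotaxin of alternatively activated macrophages, was counted 12, 13 and 6 times in WT libraries and 55, 18 and 1 times in *Crlf2*-/- libraries, and its log2 fold change of 0.36 became -0.54 without *Crlf2*-/- replicate 1.

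The highest library was replicate 1 in both groups for 7 of 26 ligands (26.9%, beside 10.4% of all genes tested). These were *Ccl2*, *Ccl4*, *Ccl6*, *Ccl7*, *Ccl9*, *Cxcl2* and *Cxcl5*. This pair of libraries is given because it held the most ligands, the next pair holding 4, so its share is not a test. Not all attractants of myeloid cells followed it. *Ccl3* and *Cxcl1* were highest in WT replicate 2 and *Crlf2*-/- replicate 1. *Ccl12* was highest in WT replicate 1 and *Crlf2*-/- replicate 2, and *Ccl8* in replicate 2 of both groups. For *Ccl4* the top libraries were close, at 12.6 and 11.7 FPKM in WT and 12.4 and 12.1 FPKM in *Crlf2*-/- hearts. Of 10 markers of monocytes and macrophages, *Lyz2*, *Cd68* and *Itgam* were highest in replicate 1 of both groups. The other 7, *C1qa* and *Csf1r* among them, were highest in *Crlf2*-/- replicate 2. The sum of the 10, led by *Lyz2*, was 4160, 3110 and 2330 FPKM in WT and 3410, 3200 and 2750 FPKM in *Crlf2*-/- hearts, and its part in the ligands' spread was not tested. Of the 10 estimates 9 were above 0 and 1 below. Only *Ly6c2* had an unadjusted p under 0.05 (0.56, unadjusted p = 0.0126, adjusted p = 0.509, limma), beside 3.01% of all genes higher at that threshold. *Pf4*, a platelet and macrophage CXC chemokine named outside the rule, measured 83.2, 48.2 and 34.4 FPKM in WT and 86.0, 82.8 and 51.9 FPKM in *Crlf2*-/- hearts (log2 fold change 0.47, 95% interval -0.28 to 1.22). The replicate numbers are names only, and whether mice were handled by number is not given. Over all tested ligands, the highest library exceeded the lowest of its own group by at most 1.5 times for 6 ligands, by over 2 times for 11 and by over 3 times for 4.

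**Figure D5:**
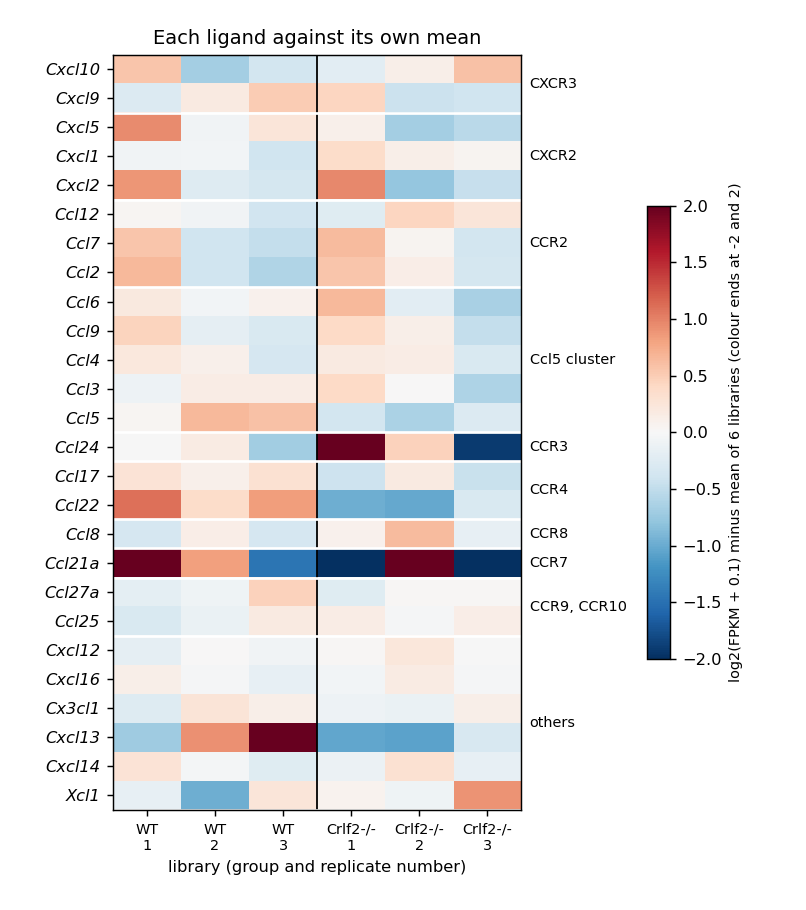
Each tested ligand (vertical, grouped by receptor or gene cluster) in each library (horizontal), coloured by log2(FPKM + 0.1) minus its mean over 6 libraries, with a line between WT and *Crlf2*-/-. *Ccl22* and *Ccl5* are blue across the *Crlf2*-/- libraries, *Ccl2*, *Ccl7* and *Cxcl2* are red in replicate 1 of both groups, and *Ccl21a* and *Ccl24* change colour within groups.

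The remaining 18 ligand genes were too low to test. 8 of them had no fragment in any library: *Ccl20*, *Ccl26*, both copies of *Ccl19*, both of *Ccl21b*, and 1 copy each of *Ccl21c* and *Ccl27a*. For *Ccl20* and *Ccl26*, 3 fragments, the limit that a count of 0 allows, correspond to between 0.0905 and 0.491 FPKM in a library, counting error only, so they were not detectable at this depth. The other 6 are copies of genes annotated more than once, where counting can lose fragments shared between copies, so a 0 there does not bound the level. The other 10 had between 1 and 50 fragments over all libraries, *Ccl28* (50), *Cxcl3* (48), *Ccl11* (47) and *Cxcl15* (32) having the most, and the rest were *Ccl21c* (12), *Ccl1* (11), *Cxcl17* (7) and 1 fragment each for *Ccl27b*, a second *Ccl27a* and a second *Ccl21a*. *Ccl19*, the other CCR7 ligand, is therefore listed at 0 without a bound.

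On the receptor side, 23 genes were listed and 18 tested, with none called by limma and 4, or 22.2%, lower in *Crlf2*-/- hearts at an unadjusted p under 0.05 beside 3.32% of all genes. The median log2 fold change of the 18 was 0.0320. *Cxcr3*, carried by activated T cells, stood at 3.94, 4.59 and 4.57 FPKM in WT and 2.76, 2.92 and 3.49 FPKM in *Crlf2*-/- hearts (log2 fold change -0.51, adjusted p = 0.385, limma), while its ligands *Cxcl9* and *Cxcl10* overlapped. *Cxcr6*, on tissue T cells, was also lower in every *Crlf2*-/- library (-0.59, adjusted p = 0.610, limma) while its ligand *Cxcl16* was at 0.05. *Ccr7* (-0.77) and the scavenging receptor *Ackr2* (-0.50) completed the 4, and each of the 4 was lower in every *Crlf2*-/- library, beside 6.45% of all genes tested.

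Receptors of myeloid cells had small differences: *Ccr2* had a log2 fold change of 0.09, *Cx3cr1* of 0.13 and *Ccr1* of 0.30, each overlapping between groups. *Cxcr4*, the receptor of *Cxcl12*, stood at 0.02. *Cxcr5*, the receptor of *Cxcl13*, measured 0.0391, 0.139 and 0.220 FPKM in WT and 0.487, 0.193 and 0.186 FPKM in *Crlf2*-/- hearts, overlapping, on at most 36 fragments a library.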

How the data were processed

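RNA from infarcted hearts of 3 WT and 3 *Crlf2*-/- mice was sequenced on day 7. Per the methods and labels, reads were trimmed, aligned with HISAT2 2.0.5 and counted per gene with featureCounts, and the authors deposited FPKM with a gene length. The submitters' notes list builds mm10 and hg38; the ligands' positions equal those of GENCODE M21 (GRCm38). FPKM multiplied by gene length gave whole fragments for 100% of nonzero values (tolerance 0.02), which set depth and the filter.

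Libraries were brought to a common scale with trimmed-mean factors (TMM, 0.9861 to 1.021). Then log2(FPKM + 0.1) was tested with limma 3.58.1 (eBayes with trend and robust) in R 4.3.3, without covariates, over 15520 genes. This scale was chosen because the file holds FPKM, although whole fragments could be worked out from it and voom was run on them. The authors tested their counts with DESeq2, which was not run here. The absence of called ligands therefore holds for limma only. The fit was tested on simulated data in which only genes with many fragments changed, which says nothing about low genes such as *Ccl22*. Alternatives were other scalings, filters and pseudocounts, voom, plain eBayes, a replicate block and leaving out each library. The p-values measure the spread between these 3 mice a group.

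Members, gene lists and tests were chosen with earlier results of these data known. Values are given for each library for ligands with an unadjusted p under 0.05 or no overlap, the 10 most abundant, and those over 3 times apart within a group; other ligands were named to account for each member. Promoters came from RefSeq (GRCm38.p6) and matched 18 of 26 tested ligands. One receptor of the list is not reported here.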

Additional observations from a re-analysis of the deposited data

How the results depend on the processing

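No chemokine ligand was called in any of the 15 other settings, and the smallest adjusted p of a ligand in any of them was 0.118 (limma). *Ccl22* and *Ccl5* had an unadjusted p under 0.05 in 15 of 15 settings, *Cxcl5* in 11, *Cxcl13* in 7 and *Ccl17* in 6. Genes called among all tested numbered 2, and 6 with no filter on low genes, 1 with at least 10 fragments in every library, 4 with the replicate block and 1 to 20 with 1 library left out, 20 without *Crlf2*-/- replicate 1 and 13 without WT replicate 3. Ligands with an unadjusted p under 0.05 numbered 5, all lower; voom gave 3, all lower, plain eBayes 3 lower and 1 higher, and leaving out 1 library gave 3 to 6, with 2 to 5 lower and 0 to 2 higher. The 3 came without WT replicate 2 and without WT replicate 3. Receptors below that threshold numbered 4, and 2 to 5 with 1 library left out, the 2 without WT replicate 2. The replicate block gave 6 ligands, 4 lower and 2 higher; the correlations between WT and *Crlf2*-/- libraries of equal number, after removing group means, were -0.0155, 0.117 and 0.12, and mice were therefore treated as unpaired. The cause of these shifts was not tested.

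Of 387 comparisons of a single ligand with its own value under another setting, 365 kept their direction and 22 reversed, all with 1 library left out. The log2 fold change then ranged from -0.70 to 0.20 for *Cxcl2*, -0.17 to 0.27 for *Ccl9*, -0.24 to 0.04 for *Cx3cl1*, -0.15 to 0.12 for *Cxcl14*, -0.021 to 0.11 for *Cxcl16*, -0.004 to 0.59 for *Ccl2*, -0.13 to 0.17 for *Ccl4*, -0.27 to 0.089 for *Ccl27a*, -0.056 to 0.52 for *Ccl7*, -0.54 to 1.41 for *Ccl24*, -0.51 to 0.15 for *Ccl6* and -0.38 to 0.14 for *Ccl3*. Depth limits the ligands under 1 FPKM most, such as *Ccl22* on 11 to 66 fragments a library.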
